A study of Mus musculus with 6 samples.

Results

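The genes described here are the keratins of stratified epidermis and hair, measured in migrating keratinocytes of mouse skin wounds. They were chosen by name, as every gene whose symbol is Krt followed by a digit and that had a probe set annotated to it alone, leaving out the simple-epithelium keratins Krt7, Krt8, Krt18 and Krt19. This gave 48 genes, each with 1 probe set, of 19938 genes on the arrays. They were sorted by known role into 3 basal, 6 suprabasal, 4 wound-induced and 22 hair or root-sheath keratins, with 13 others. The study compared 3 arrays from diabetic mice with 3 arrays from normal mice. The diabetic mice received a diet high in fat and fructose for 16 weeks from 8 weeks of age, and the normal mice a control diet for as long. All mice were then wounded and the wounds taken on day 3, with strain and sex not given in the labels. E-cadherin staining guided laser capture of the cells at the leading tip of the epithelium in fixed tissue, and captured cells were pooled over the sections of a sample before total RNA was extracted.

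Keratins are the intermediate filament proteins of epithelial cells. A filament is built from heterodimers of an acidic type I and a basic type II keratin, so the genes are expressed in pairs, and the pair changes as a keratinocyte moves from the basal layer to the surface. Basal cells make Krt5 with Krt14, and cells that leave the basal layer replace these with Krt1 and Krt10. Keratinocytes at a wound edge are known to induce Krt6a, Krt6b, Krt16 and Krt17, while the hair follicle has its own sets for the inner root sheath, the companion layer and the hair shaft.

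Values are log2 probe set signals, on which a difference of 1 is a 2-fold difference in signal, and each difference is the diabetic mean minus the normal mean (n = 3 arrays in each group). A background limit was set on each array at the 95th percentile of 1194 receptor genes of smell and pheromone sensing, and it lay between 1.98 and 2.12. A probe set at or below it gives no more than a bound on the level of its transcript, and signal differences there can understate differences in RNA. Signals are not compared between genes, because probe sets differ in their response. In captured samples such as these, fewer cells of a type and less RNA per cell cannot be told apart.

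The labelled cell type was checked on 9 keratinocyte markers, of which the integrin gene Itgb4 and the stratifin gene Sfn exceeded the limit on each of the 6 arrays. The gene of E-cadherin, Cdh1, and the integrin gene Itga6 stayed under it throughout. Krt5 and Krt14 on this list are also among the 48 keratins. The 9 markers summed to a linear signal of 41.2 to 48.3 in diabetic and 43.5 to 48.2 in normal samples. Their differences had a median of -0.09, with 4 of 9 higher in diabetic samples. Cdh1 and Perp were lower on every diabetic array than on any normal array, by -0.16 and -0.25 (limma adjusted p 0.911 and 0.893). Such separation, in either direction, was seen for 10.7% of all genes. The marker genes of fibroblasts, which lie below the epithelium, summed to a linear signal of 33.1 to 40.6 in diabetic and 31.8 to 33.3 in normal samples, with 3 of 6 above the limit on all arrays. Those of skeletal muscle summed to 31.7 to 36.6 in diabetic and 29.4 to 31.4 in normal samples, also with 3 of 6 above the limit on all arrays. The captured material therefore gave detectable signal for only part of the keratinocyte list, and for part of the lists of neighbouring tissues.

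Most keratins gave signals at or near background. Over all 6 arrays, 10 of the 48 were above the limit throughout (20.8%, against 17.4% of all genes), 14 were below it throughout (29.2%, against 51.5% of all genes) and 24 were above it on some arrays. The 10 were Krt15 of the basal group, Krt10 of the suprabasal group, Krt25, Krt33a, Krt75, Krt82 and Krt87 of the hair group, and Krt42, Krt88 and Krt90 of the others. No wound-induced keratin was among them. The count rests on where the limit is placed, since at the 99th percentile of the receptor genes only Krt87 remained above it on all arrays and at the 90th percentile 19 keratins did.

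Per array, 21, 28 and 18 keratins were above the limit in diabetic samples, against 16, 19 and 20 in normal samples. As shares these were 43.8%, 58.3% and 37.5% in diabetic samples and 33.3%, 39.6% and 41.7% in normal samples. The corresponding shares of all genes were 35.3%, 36.6% and 29.4% in diabetic and 27.4%, 28.4% and 28.7% in normal samples. Diabetic replicate 2 thus had the most detected keratins, and the other 5 arrays overlapped between the groups. The limit itself was low on diabetic replicates 1 and 2 (1.98 and 2.01) and between 2.11 and 2.12 on the other 4 arrays. The simple-epithelium keratin Krt8 was also highest on diabetic replicate 2, at 4.27, 6.06 and 3.86 in diabetic and 2.95, 3.93 and 3.76 in normal samples. The part of the lower limit or of Krt8-rich cells in the number detected was not tested.

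**Figure D1:**
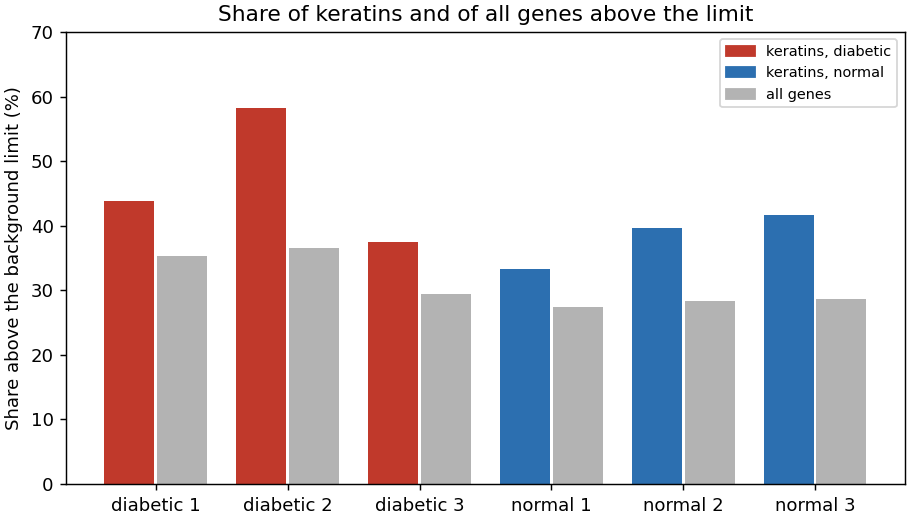
Bars give the percentage of the 48 keratins (coloured) and of all 19938 genes (grey) whose log2 signal exceeded the background limit on each array, with the 3 diabetic arrays on the left and the 3 normal arrays on the right. Diabetic replicate 2 stands highest at 58.3%, and on every array the keratin bar is above the bar of all genes.

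No keratin differed between diabetic and normal samples past the adjusted threshold. With limma and Benjamini-Hochberg adjustment over all genes, 0 of 48 keratins had an adjusted p under 0.05, where 0 of 19938 genes (0%) did, and the smallest adjusted p of a keratin was 0.835. At an unadjusted p under 0.05 there were 2 keratins (4.17%), against 5.56% of all genes. These were Krt9 and Krt25, both with lower signal in diabetic samples. The arrays of the groups did not overlap for 4 keratins (8.33%), against 10.7% of all genes, and both shares were near those of the whole array. Krt9, Krt25 and Krt87 were lower in all 3 diabetic samples than in any normal sample, and Krt84 was higher.

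Differences in keratin signal were small. Of the 48, 21 had higher and 27 lower signal in diabetic samples, the median being -0.02 (all genes less than 0.01 in size), and they ran from -0.48 for Krt6b to 0.26 for Krt72. For 33 of the 48 the difference was under 0.2 in size, a smaller share than the 82.8% of all genes. None reached 1.5-fold, as 63 of 19938 genes did. The 95% confidence interval lay within 2-fold in either direction for 47 keratins, the exception being Krt6b, and within 1.5-fold for 39. Over all 19938 genes the corresponding counts were 19855 and 18121. For keratins under the limit these intervals describe array signal and put no bound on RNA.

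**Figure D2:**
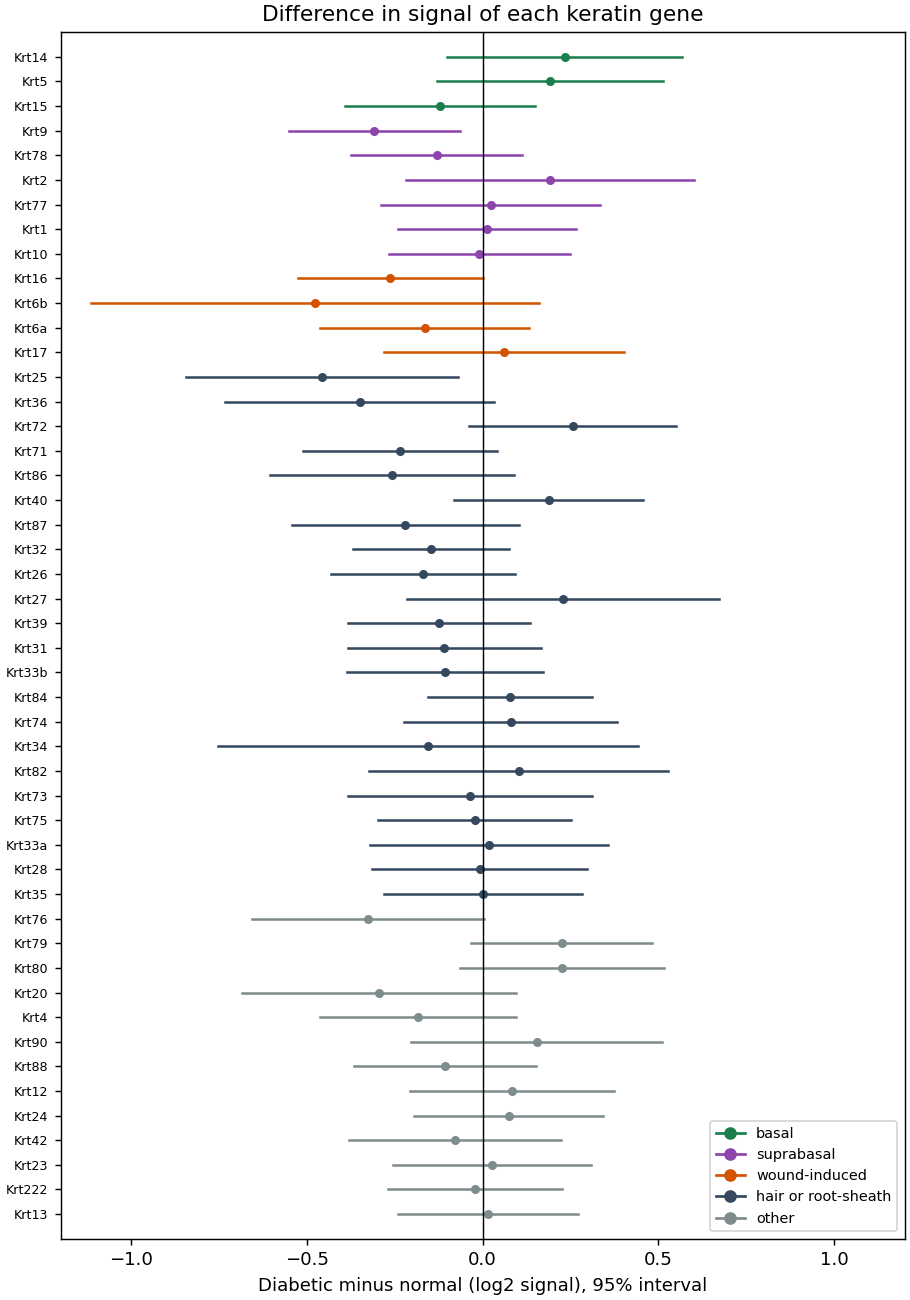
Each point is the diabetic minus normal difference in log2 signal of 1 keratin gene, with its 95% confidence interval from limma (n = 3 arrays per group), coloured by group and ordered within each group by unadjusted p. Only the intervals of Krt9 and Krt25 leave out 0, and the interval of Krt6b is the widest.

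Among the basal keratins, the pair Krt5 and Krt14 had somewhat higher signal in diabetic samples and Krt15 somewhat lower, with overlap for all 3. Krt14, the type I keratin of the basal layer, was at 2.19, 2.05 and 1.80 in diabetic and 1.55, 2.07 and 1.73 in normal samples. The difference was 0.23 (SE 0.15, limma adjusted p 0.906). Normal replicate 2 lay among the diabetic values, and the difference was 0.38 without it, 0.12 without normal replicate 1 and 0.14 without diabetic replicate 1. Krt5, the type II partner of Krt14, was at 1.78, 2.32 and 2.17 in diabetic and 1.78, 1.99 and 1.93 in normal samples, which differed by 0.19 (SE 0.15, limma adjusted p 0.911). Diabetic replicate 1 and normal replicate 1 shared the lowest Krt5 signal, and leaving out diabetic replicate 1 gave a difference of 0.35, leaving out diabetic replicate 2 one of 0.08. Krt5 and Krt14 each exceeded their array's limit in 2 diabetic and 0 normal samples, although for Krt5 these were diabetic replicates 2 and 3 and for Krt14 diabetic replicates 1 and 2. The limits differed between arrays, and for Krt14 this set the count, since diabetic replicate 2 at 2.05 was above its limit of 2.01 while normal replicate 2 at 2.07 was under its limit of 2.11.

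Krt15, a type I keratin of basal cells and of the stem cells of the hair follicle bulge, was the basal member above the limit on all 6 arrays. It was at 2.33, 2.24 and 2.46 in diabetic and 2.53, 2.44 and 2.43 in normal samples. The 2 sets of arrays overlapped, and the difference of -0.12 (SE 0.12) did not pass.

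The suprabasal pair showed the smallest differences of the main epidermal keratins. Krt10, the type I keratin of the spinous layer, was at 2.20, 2.25 and 2.25 in diabetic and 2.14, 2.26 and 2.33 in normal samples, above the limit on every array. Its difference was -0.01 (SE 0.12, 95% interval -0.27 to 0.25), and it was 0.01 after subtracting each array's median. Krt1, the type II partner, was at 2.05, 2.08 and 1.88 in diabetic and 2.02, 1.93 and 2.02 in normal samples, which differed by 0.01 (SE 0.12). The values of both genes were interleaved between the groups.

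Krt2, a type II keratin of the upper epidermis, was at 1.79, 2.41 and 1.74 in diabetic and 1.86, 1.49 and 2.02 in normal samples. Its difference of 0.19 (SE 0.19) depended on single arrays, at -0.02 without diabetic replicate 2, 0.04 without normal replicate 2 and 0.31 without diabetic replicate 3 or normal replicate 3. Krt77 and Krt78, further type II keratins, differed by 0.02 and -0.13, with overlap for both. None of the 3 was above the limit on more than 1 array of a group.

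Krt9, the type I keratin of palm and sole epidermis, had the smallest unadjusted p of all keratins. It was at 1.74, 1.69 and 1.56 in diabetic samples (mean 1.66 ± 0.09, SD, n = 3) and 1.99, 1.89 and 2.03 in normal samples (1.97 ± 0.07). All diabetic values lay below all normal values, a difference of -0.31 (SE 0.11, limma adjusted p 0.835). Every one of these 6 values was under the background limit of its array, so the difference lies within the range of signals given by receptor genes.

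The wound-induced keratins, which mark activated keratinocytes, gave little signal in either group. Krt6a, Krt16 and Krt17 were under the limit on all 6 arrays (75% of the group, against 51.5% of all genes). This bounds their level and does not show that the transcripts were absent. Krt6b exceeded the limit on 1 diabetic and 2 normal arrays. Of the 4 genes 3 had lower signal in diabetic samples, with a median difference of -0.21, and none passed the test. Krt16, a type I keratin, was at 1.65, 1.61 and 1.86 in diabetic and 1.83, 2.06 and 2.02 in normal samples. Diabetic replicate 3 lay just above the lowest normal value, and the difference was -0.26 (SE 0.12, limma adjusted p 0.893).

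Krt6b, a type II keratin that pairs with Krt16 and Krt17, had the largest difference in size of the 48 and also the largest spread. It was at 1.85, 1.82 and 2.16 in diabetic samples (1.94 ± 0.19) and 2.21, 3.28 and 1.76 in normal samples (2.42 ± 0.78). The groups overlapped, and the difference was -0.48 (SE 0.29, limma adjusted p 0.893). It was carried by normal replicate 2, and without that array it was -0.04, while without normal replicate 3 it was -0.80. The same array had the highest mean signal of 6 leukocyte markers, at 2.00. That mean was 1.72, 1.72 and 1.78 in diabetic samples and 1.64 and 1.77 in the other normal samples. S100a9 stood out, at 3.08 on normal replicate 2 against 1.82 to 2.25 on the other arrays. S100a8 and Cd68 were also highest on normal replicate 2, though under the limit on all arrays, and Ptprc, Lyz2 and Cd3e were highest on other arrays. Of the leukocyte markers 4 of 6 were under the limit on all arrays and 0 above it on all. Their summed linear signal was 20.0 to 21.1 in diabetic and 18.9 to 25.9 in normal samples. Which cells gave the S100a9 signal, and the part of leukocytes in the Krt6b signal, were not tested.

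Krt6a, a close relative of Krt6b that lies next to it in the genome, did not show that peak. It was at 1.66, 1.31 and 1.19 in diabetic and 1.74, 1.49 and 1.42 in normal samples, which differed by -0.16 (SE 0.14). Replicate 1 was the highest in both groups, and the difference was -0.30 without diabetic replicate 1 and -0.07 without normal replicate 1. Krt17, a type I keratin of wound edges and follicles, was at 1.39, 1.81 and 1.97 in diabetic and 1.49, 1.87 and 1.62 in normal samples, which differed by 0.06 (SE 0.16). Neither gene separated the groups. The Krt6 genes are similar in sequence, and probe sequences were not used here, so signal shared between their probe sets was not tested.

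**Figure D3:**
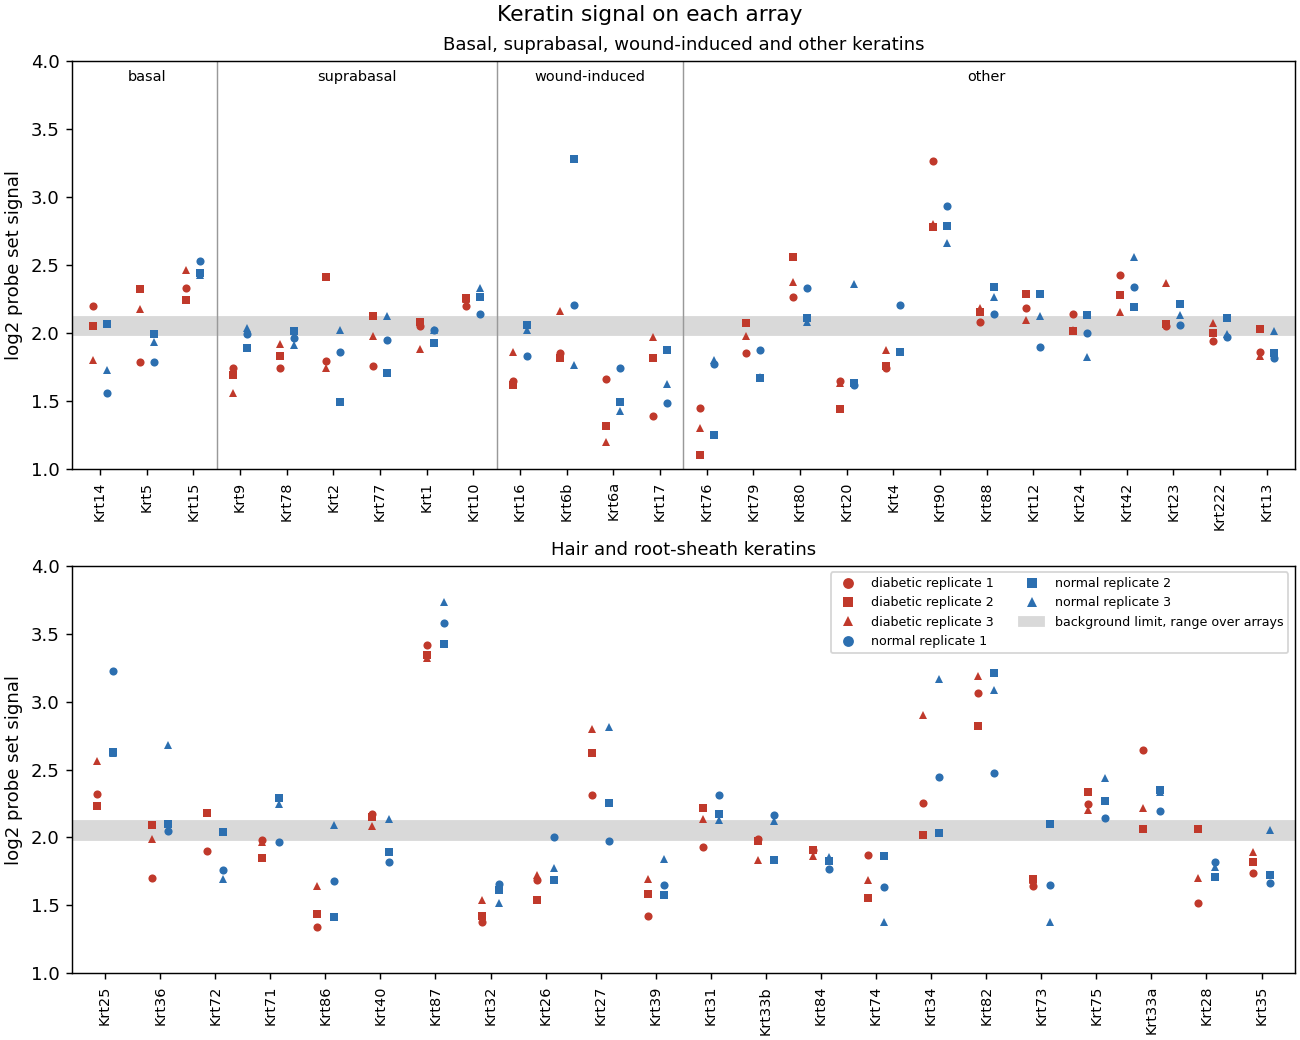
Each symbol is the log2 signal of 1 array for 1 keratin gene, with diabetic arrays in red on the left of each gene and normal arrays in blue on the right, and the grey band spans the background limits of the 6 arrays (1.98 to 2.12). Most keratins have arrays in or under the band, Krt10, Krt15, Krt25, Krt42, Krt75, Krt82, Krt87 and Krt90 lie wholly above it, and normal replicate 2 stands alone for Krt6b at 3.28.

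The hair and root-sheath keratins were the largest group, with 22 genes, of which 8 were higher and 14 lower in diabetic samples and the median difference was -0.07. None passed the adjusted threshold and 1 had an unadjusted p under 0.05 (4.55%, against 5.56% of all genes). Above the limit on all arrays were 5 (22.7%, against 17.4% of all genes), and 8 were above it on none (36.4%, against 51.5%). Hair was also followed by 7 marker genes outside the keratins, of which 3 exceeded the limit throughout and 4 never did. The mean signal of those markers was 1.95, 2.01 and 2.14 in diabetic and 1.96, 2.21 and 2.05 in normal samples, without separation of the groups.

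Krt25, a type I keratin of the inner root sheath, was the hair member with the smallest unadjusted p. It was at 2.32, 2.23 and 2.56 in diabetic samples (2.37 ± 0.17, SD, n = 3) and 3.23, 2.63 and 2.62 in normal samples (2.83 ± 0.35), above the limit on every array. The highest diabetic value lay just under the lowest normal value, and the difference was -0.46 (SE 0.18, 95% interval -0.84 to -0.07, limma adjusted p 0.839). Normal replicate 1 held much of it, since without that array the difference was -0.26. The other inner root sheath keratins of type I lie next to Krt25. Krt26 differed by -0.17, the same sign as Krt25, Krt27 by 0.23 and Krt28 by -0.01, and Krt26 and Krt28 exceeded the limit on 0 and 1 arrays. Krt27 was at 2.31, 2.62 and 2.80 in diabetic and 1.97, 2.26 and 2.81 in normal samples, with replicate 3 the highest and replicate 1 the lowest in both groups. Its difference was 0.04 without normal replicate 1 and 0.46 without normal replicate 3.

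The type II keratins of the inner root sheath were likewise split in direction. Krt71 was at 1.98, 1.85 and 1.96 in diabetic and 1.96, 2.29 and 2.25 in normal samples, which differed by -0.23 (SE 0.13). Krt72 was at 1.90, 2.18 and 2.18 in diabetic and 1.76, 2.04 and 1.69 in normal samples, which differed by 0.26 (SE 0.13). Each overlapped between the groups, and both had a limma adjusted p of 0.893. Krt73 differed by -0.04, and Krt74, annotated as a transcribed pseudogene in the mouse gene table, by 0.08. Krt75, the type II keratin of the companion layer, was above the limit on all arrays, at 2.25, 2.34 and 2.20 in diabetic and 2.15, 2.27 and 2.44 in normal samples, which differed by -0.02 (SE 0.13).

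Among the hair shaft keratins of type I, Krt36 had the largest difference. It was at 1.70, 2.09 and 1.99 in diabetic and 2.05, 2.10 and 2.68 in normal samples, which differed by -0.35 (SE 0.18, limma adjusted p 0.893). Normal replicate 3 stood above the rest, and the difference without it was -0.15. Krt34 was at 2.25, 2.02 and 2.90 in diabetic and 2.44, 2.03 and 3.17 in normal samples, which differed by -0.16 (SE 0.27). Its SD was 0.46 in diabetic and 0.58 in normal samples, larger than the difference, with replicate 3 the highest and replicate 2 the lowest in both. Krt33a was above the limit on all arrays and differed by 0.02. The remaining shaft keratins of type I differed by -0.15 for Krt32, -0.12 for Krt39, -0.11 for Krt31 and Krt33b, less than 0.01 for Krt35 and 0.19 for Krt40. All of them overlapped between the groups.

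Of the hair keratins of type II, Krt87 was the only keratin above the limit on all arrays at each of the 3 percentiles tried. It was at 3.42, 3.34 and 3.32 in diabetic samples (3.36 ± 0.05) and 3.58, 3.42 and 3.74 in normal samples (3.58 ± 0.16). The groups stood apart by less than the SD of either, and the difference was -0.22 (SE 0.15, limma adjusted p 0.906). Krt82, a keratin of the hair cuticle, was at 3.06, 2.82 and 3.19 in diabetic and 2.48, 3.21 and 3.09 in normal samples, which differed by 0.10 (SE 0.19). Normal replicate 1 had the lowest Krt82 signal, and the groups overlapped. Krt86 differed by -0.26 (SE 0.16), with all 6 arrays under the limit, and by -0.08 without normal replicate 3 and -0.41 without normal replicate 2. Krt84, a keratin known from tongue and nail, was higher in all 3 diabetic samples, at 1.91, 1.91 and 1.86 against 1.77, 1.82 and 1.85 in normal samples, but under the limit throughout and with a difference of only 0.08 (SE 0.11).

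**Figure D4:**
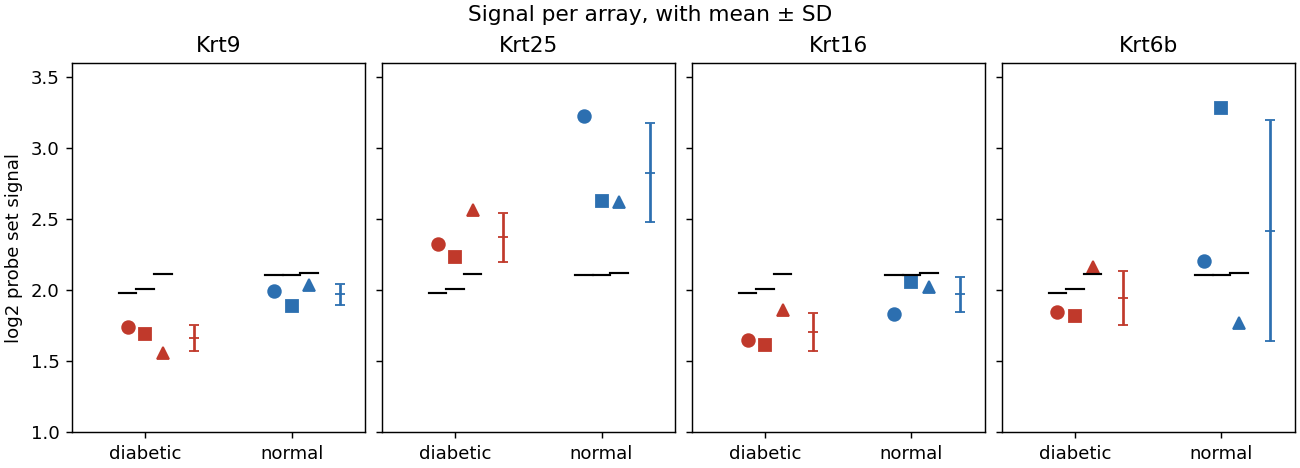
Symbols give the log2 signal of Krt9, Krt25, Krt16 and Krt6b on each array (circle, square and triangle for replicates 1, 2 and 3), diabetic on the left and normal on the right of each panel, with the mean and SD of the 3 arrays beside them and a short black line at each array's background limit. Krt9 and Krt16 lie under the limits on all arrays, Krt25 lies above them on all, and the Krt6b mean of normal samples is raised by replicate 2.

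The 13 other keratins, most of them known from other stratified epithelia or of less settled role, were split 7 higher and 6 lower in diabetic samples, with a median difference of 0.01 and 0 at an unadjusted p under 0.05. Krt76 and Krt4, type II keratins of oral epithelium, differed by -0.32 (SE 0.15) and -0.18 (SE 0.13), and Krt13, the type I partner of Krt4, by 0.01. Krt76 was under the limit on all arrays, at 1.44, 1.10 and 1.30 in diabetic and 1.77, 1.25 and 1.80 in normal samples. The oral keratins thus held no member that separated the groups. Krt79, a keratin of the hair follicle opening, was at 1.85, 2.07 and 1.97 in diabetic and 1.87, 1.67 and 1.67 in normal samples, which differed by 0.23 (SE 0.12). Krt80, a type II keratin of differentiating cells, was at 2.26, 2.56 and 2.38 in diabetic and 2.33, 2.11 and 2.08 in normal samples, which also differed by 0.23 (SE 0.13). In both genes normal replicate 1 lay among the diabetic values. The difference was 0.29 for Krt79 and 0.30 for Krt80 without that array, and 0.17 for Krt79 and 0.14 for Krt80 without diabetic replicate 2.

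Krt20, a keratin of gut and urothelium, differed by -0.29 (SE 0.18), and normal replicate 3 at 2.36 was its only value above the limit. Without that array the difference was -0.05. Krt90 was above the limit on all arrays, at 3.26, 2.78 and 2.80 in diabetic and 2.94, 2.79 and 2.66 in normal samples, which differed by 0.15 (SE 0.16). Diabetic replicate 1 was the highest, and without it the difference was less than 0.01 in size. Krt42 and Krt88 were above the limit on all arrays and differed by -0.08 and -0.11. Krt12 of the cornea, Krt23, Krt24 and Krt222 differed by 0.08, 0.03, 0.07 and -0.02. No member of these had groups that stood apart.

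The keratin genes lie in 2 clusters, the 26 type I members on chromosome 11 and the 22 type II members on chromosome 15 in the mouse gene table of assembly GRCm38.p6. The median difference was -0.05 for the type I cluster and -0.01 for the type II cluster, with 10 of 26 and 11 of 22 genes higher in diabetic samples. Some runs of neighbours had 1 sign and others were mixed. The examples given here were picked with the signs known, and an effect of position was not tested. On chromosome 11 the neighbouring hair keratins Krt33b, Krt34, Krt31 and Krt32 had differences of -0.11, -0.16, -0.11 and -0.15, while the run Krt9, Krt14, Krt16 and Krt17 had -0.31, 0.23, -0.26 and 0.06. On chromosome 15 the run Krt87, Krt88 and Krt86 had differences of -0.22, -0.11 and -0.26 and the run Krt84, Krt82 and Krt90 had 0.08, 0.10 and 0.15, while Krt6b, Krt6a, Krt5 and Krt71 had -0.48, -0.16, 0.19 and -0.23. None of these genes passed the test.

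The genes that anchor keratin filaments or control keratin expression were followed as a list of 42 desmosome, hemidesmosome, linker, matrix and regulator genes, of which 39 were measured. Signal was higher in diabetic samples for 23 and lower for 16 (median difference 0.04). None of the 39 had an adjusted p under 0.05, and 2 had an unadjusted p under 0.05 (5.13%, against 5.56% of all genes). Foxn1, a transcription factor that drives hair keratin genes, was at 2.21, 1.82 and 2.06 in diabetic and 1.60, 1.55 and 1.42 in normal samples, which differed by 0.51 (SE 0.13, limma adjusted p 0.780), without overlap and above the limit on 1 diabetic array. Trp63, whose product activates Krt5 and Krt14, was at 1.62, 1.79 and 2.04 in diabetic and 2.24, 2.00 and 2.13 in normal samples, which differed by -0.31 (SE 0.14, limma adjusted p 0.887). Krt5 and Krt14 thus had the opposite sign of difference to Trp63, and none of the 3 passed.

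Of the proteins that tie keratins to cell junctions, desmoplakin (Dsp) differed by -0.30 (SE 0.14), plakoglobin (Jup) by 0.25 (SE 0.13) and plectin (Plec) by 0.26 (SE 0.15). Dsp was at 2.22, 2.42 and 2.10 in diabetic and 2.61, 2.65 and 2.37 in normal samples, and diabetic replicate 2 exceeded the lowest normal value. Dlx3, a homeobox gene of hair and epidermal differentiation, differed by 0.36 (SE 0.18), and Flg2, a filaggrin relative of the cornified layer, by -0.22 (SE 0.12). The groups overlapped for all 5.

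Which array gave a keratin its highest signal was uneven. Normal replicate 3 was the highest for 14 of the 48 keratins (29.2%, against 20.1% of all genes) and diabetic replicate 3 for 3 (6.25%, against 16.8% of all genes). The counts were 6 and 9 for diabetic replicates 1 and 2, and 8 and 8 for normal replicates 1 and 2. The median signal of the 48 keratins was 1.90, 2.06 and 1.97 on diabetic arrays and 1.97, 2.03 and 2.05 on normal arrays. The highest and the lowest of these 6 medians were both diabetic, so the keratin medians of the normal arrays lay within the range of the diabetic ones.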

How the data were processed

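The authors deposited 1 table of log2 signals, with 35556 probe sets in rows and 6 arrays in columns. The log base was taken from the values. Per the submitters' processing notes Partek was used, with no version, and the sources used here do not give its steps (background, scaling, summary over probes). Array medians lay between 1.75 and 1.80, no scaling was added, and the number of arrays limits the precision. No array held the values of another. Groups and replicate numbers came from the titles. The titles name the arrays of a group as biological replicates, without stating separate mice, and the p-values reflect the spread of these samples.

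The array's annotation table gave 1 symbol for 21789 probe sets and several for 1621, which were left out, and 12146 were not listed in it. By gene ID, 21698 probe sets were matched to the mouse gene table and took its symbol, which changed 0 keratin symbols. Krt81, Krt83 and Krt85 were not analysed here. The brightest probe set stood for a gene with several, leaving 19938 genes with no filter on dim genes. The comparison used limma 3.58.1 under R 4.3.3 (lmFit on the group alone, eBayes with an intensity trend), with p-values adjusted over all genes by Benjamini-Hochberg. In simulated arrays of 3 against 3 for this comparison, run on 19938 genes, the fit called 96.4% of genes changed 2-fold and 39.6% of genes changed 1.5-fold at an adjusted p under 0.05. The changes were added to the log2 signal of randomly chosen genes, with independent noise drawn from the fitted variance. Genes changed 4-fold and 8-fold were simulated in the same arrays, and 100% of these were called. Many called genes ease the adjusted threshold for the rest, whereas 0 of 19938 genes passed in the real data. The shares therefore do not hold for a few genes that change alone, a setting that was not simulated. Near background a 2-fold change in RNA can give a smaller change in signal, and the share called there was not tested. The titles do not state that same-numbered arrays are paired, and the replicate number was kept out of the fit. Such arrays did not deviate together (correlations across genes of -0.02, 0.01 and 0.01), which does not settle whether they were paired. Keratins named in full were 13 fixed ones, those above the background limit on all arrays, the 4 of each group with the smallest unadjusted p and any with an unadjusted p under 0.05, and all others were named with their difference. The members, gene lists, background limit and tests were chosen with earlier results of these data known. Coordinates are not printed, since the sources used here name no build for the probes.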

Additional observations from a re-analysis of the deposited data

How the results depend on the processing

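Under all 16 alternatives that refit the groups, 0 keratins passed an adjusted p under 0.05, and the lowest adjusted p of any keratin was 0.621, for Krt76 without normal replicate 2. Over all genes the adjusted count was 0 in each alternative except leaving out an array, where it ran from 0 to 2 (2 without diabetic replicate 2, 1 without diabetic replicate 3). The count of keratins at an unadjusted p under 0.05, 2 as reported, was 1 in the ordinary linear model, 1 among the 20 keratins above the background limit on at least 3 arrays, 4 with the replicate block and 0 when a fold of at least 1.5 was also asked. Of all genes tested in these settings, 5.2%, 5.72%, 5.75% and 0.256% met the same criterion, in that order. With an array left out it ran from 1 to 7 of 48, where 7 came without normal replicate 2, 6 without normal replicate 1, 5 without normal replicate 3 and without diabetic replicate 1, and 1 without diabetic replicate 2. The shares of all genes in these refits were 6.98%, 5.69%, 5.87%, 5.06% and 4.57%, in that order. The median difference of the keratins stayed between -0.063 and 0.0011. The number of keratins above the background limit on all arrays was 1 at the 99th and 19 at the 90th percentile of the receptor genes, against 10 as reported. The sign of the difference held in every alternative for 28 of the 48 keratins. Scaling or weighting turned it for Krt10 (0.0078 after subtracting array medians), Krt28 (0.0018 after quantile normalization, 0.0083 after subtracting array medians, 0.013 with array weights), Krt33a (-0.0098) and Krt35 (-0.0022), the last 2 with array weights. Leaving out 1 array turned it for 20 keratins, with these ranges: Krt1 (-0.026 to 0.076), Krt2 (-0.025 to 0.31), Krt10 (-0.061 to 0.034), Krt12 (-0.017 to 0.17), Krt13 (-0.047 to 0.074), Krt17 (-0.062 to 0.23), Krt23 (-0.076 to 0.083), Krt24 (-0.0073 to 0.15), Krt28 (-0.16 to 0.11), Krt34 (-0.41 to 0.15), Krt35 (-0.074 to 0.12), Krt42 (-0.16 to 0.020), Krt73 (-0.20 to 0.16), Krt74 (-0.044 to 0.20), Krt75 (-0.092 to 0.053), Krt77 (-0.089 to 0.12), Krt82 (-0.12 to 0.24), Krt90 (-0.0047 to 0.24), Krt222 (-0.055 to 0.021) and Krt33a (-0.15 to 0.14). The titles do not state whether the replicate numbers pair the arrays, and the block changed no adjusted call. Outside the alternatives that change the samples or the genes tested, the cause of a change was not tested.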
